A study of Manis javanica with 3 samples.

Results

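Lysosomes are acid compartments in which soluble hydrolases break down proteins, glycans, sulfated sugars and lipids brought in by endocytosis, phagocytosis and autophagy. Their membrane holds the proton pump, heavily glycosylated proteins that line the inner face and transporters that return the products to the cytosol. Professional phagocytes, among them the resident macrophages of the liver, are rich in lysosomes, while secretory cells use them to dispose of surplus secretory granules. The genes described here encode the hydrolases, their activators and the major membrane proteins of this compartment in the Malayan pangolin (Manis javanica). They were chosen from 41 listed symbols, taken from the Swiss-Prot entry of the deposited annotation, with paralogs separated by the product name of the NR (non-redundant protein) entry. Of 65 genes that carried a listed symbol, 14 had an NR name that matched no listed product and were set aside. Most of these names were those of other proteins, but that of gene26177, with the symbol GLB1, was a hypothetical protein. The expression tables held 50 of the remaining 51 genes, out of 24220 genes in all, and these 50 genes stood for 34 of the symbols. Of these symbols, 9 had more than 1 gene, 25 genes together, so a symbol can count more than once below. Whether genes of the same symbol are pieces of 1 gene was not tested. The gene of MCOLN1, a lysosomal calcium channel, was in the annotation only and was not analysed here. The genes of LAMP2 carried the Swiss-Prot symbol LAMP1, and the gene of SGSH carried GALNS. They were counted, under the name of their NR entry. Another 6 symbols (CTSF, GLA, IDS, NAGLU, SCARB2 and TFEB) had genes that carried no listed symbol. These were found by NR name alone and are given apart from the counts.

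Liver, salivary gland and small intestine tissue came from 1 adult female, a wild animal that died during rescue, with no experimental treatment. Each tissue gave 1 library, so no difference between tissues has a replicate check and no p-value is given. The question was how the 3 digestive organs of this ant-eating mammal differ in the genes they express. The libraries held 10158924, 8318686 and 14568778 counted fragments for small intestine, salivary glands and liver, the order of all values below. Levels are FPKM as deposited, fragments scaled for transcript length and library size. Differences are log2 ratios of counts scaled by TMM (trimmed mean of M values), with exact 95% intervals that cover counting error only, and a gene counted as past the fold at an absolute log2 ratio of at least 1. Genes entered a comparison with at least 10 fragments in its libraries together. The label of the small intestine library was not borne out by its markers. Genes of the stomach lining summed to 23751 FPKM there, against 18.1 in the salivary glands and 2.13 in the liver. The median of the 9 enterocyte genes there was 0.0507 FPKM, and FABP2 and LCT, which define absorptive cells, had no fragment in any library. Of the others, VIL1 was at 24.0, 25.7 and 21.2 FPKM, and the transporters SLC5A1, at 1.94, 0.221 and 0.457 FPKM, and SLC15A1, at 0.623, 0 and 0.115 FPKM, were highest in the small intestine library. Hepatocyte genes summed to 18566 FPKM in the liver, while the small intestine had 107 and the salivary glands 11.4. Of 4 salivary gland genes measured, AQP5, a water channel of acinar cells, stood at 94.3 FPKM in the salivary glands while the small intestine had 2.29 and the liver 24.7. The other 3 were not highest there, with the keratin KRT5 at 88.2, 55.0 and 0 FPKM, CA6 at 2.83, 0.142 and 0.830 FPKM and LPO at 0.182, 0.175 and 0.0386 FPKM. Fewer cells of a type and less RNA per cell cannot be told apart in such bulk libraries.

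Most of the lysosomal genes were expressed in every organ. An FPKM above 1 was reached by 43 of the 50 genes for small intestine, 44 for salivary glands and 43 for liver, or 86%, 88% and 86%, where all genes gave 59.4%, 56.3% and 57.0%. All 3 libraries passed this level for 42 genes, 84% of them, against 46.9% of all genes. The share of counts on the lysosomal genes was 0.291% for small intestine (95% Wilson interval 0.287 to 0.294%), 0.454% for salivary glands (0.450 to 0.459%) and 0.667% for liver (0.663 to 0.671%). Their levels summed to 1519, 1743 and 2826 FPKM, and to 1784, 1491 and 2812 once FPKM was divided by the TMM factor, so that the order of small intestine and salivary glands turned with the scaling. Without CTSB, the gene of cathepsin B, the sums were 1358, 1589 and 1670 FPKM, so that 1 protease gene made up most of the distance between the liver and the other organs. The GO annotation named the lysosome for 28 of the 50 genes, or 56%, and for 0.519% of all annotated genes.

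**Figure D1:**
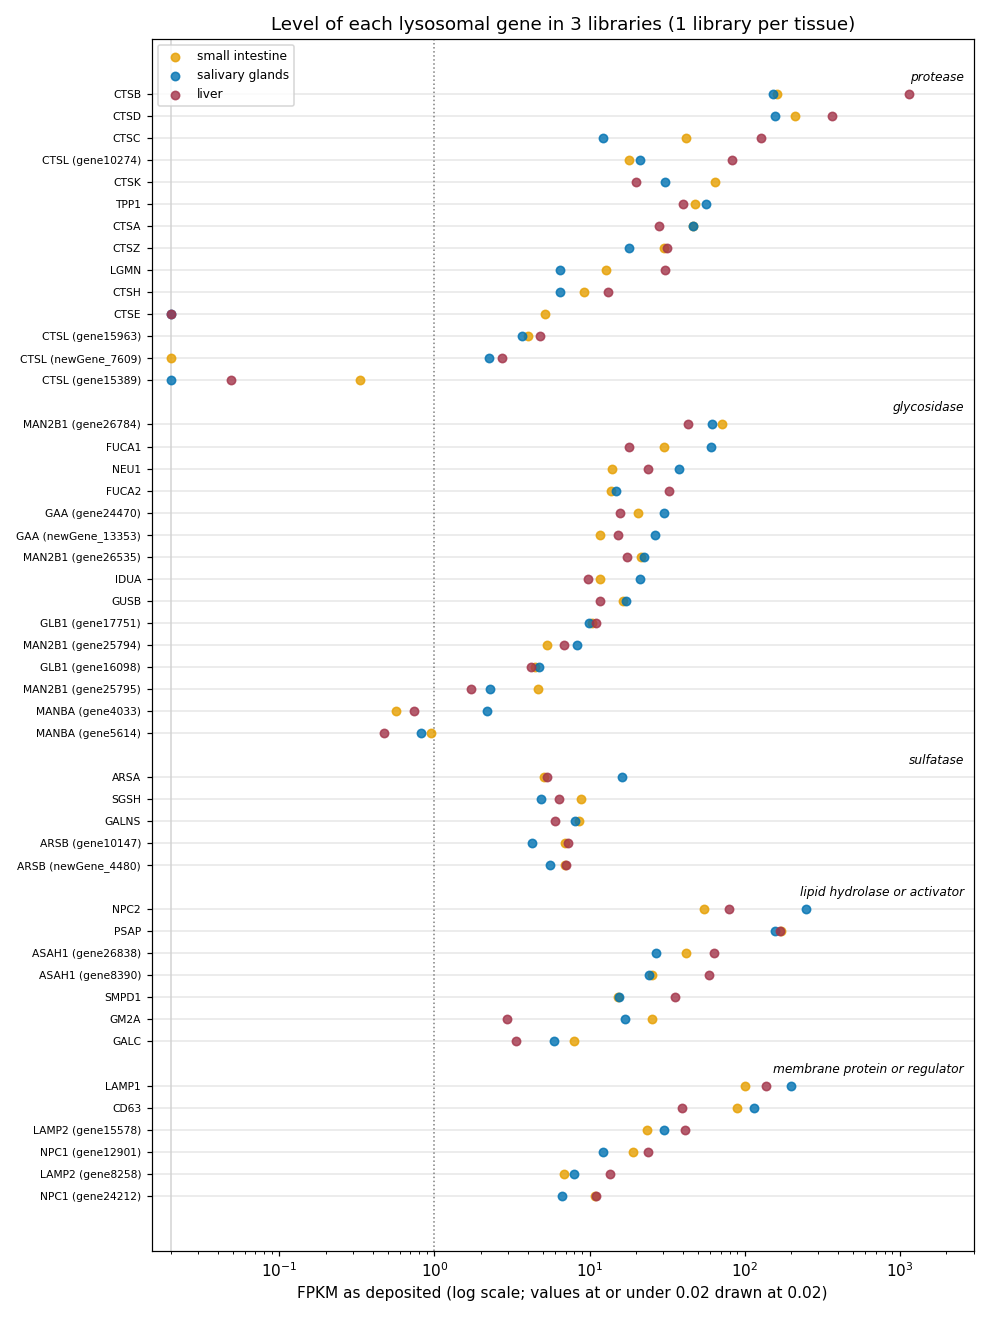
Level of each lysosomal gene with a fragment in any library, in FPKM as deposited on a log axis (values at or under 0.02 are drawn at 0.02), with 1 point per library and genes grouped by class. Most genes have their 3 points close together and right of the dotted line at 1 FPKM, whereas CTSB stands at 1155 FPKM in the liver and NPC2 at 251 FPKM in the salivary glands.

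Between liver and small intestine, 9 of the 45 genes compared were higher in the liver and 5 were higher in the small intestine. Together these are 31.1%, below the 48.0% of all genes that passed the fold in this comparison (23.7% higher in liver, 24.3% higher in small intestine). Between salivary glands and small intestine, 7 of 45 genes were higher in the salivary glands and 5 in the small intestine, 26.7% together, where all genes gave 36.9% (16.5% and 20.4% in the same directions). Between liver and salivary glands, 8 of 44 genes were higher in the liver and 6 in the salivary glands, 31.8% together against 47.4% of all genes (24.5% and 22.9%). The median log2 ratios of the lysosomal genes were 0.19, 0.06 and -0.03 in these comparisons, and those of all genes 0.06, 0.01 and 0.05. The comparisons share libraries and are not independent of each other. Of the 46 genes with at least 10 fragments in all, 18 were highest in the liver, 17 in the salivary glands and 11 in the small intestine by TMM-scaled counts. These are 39.1%, 37.0% and 23.9%, where all genes gave 38.7%, 30.7% and 30.6%, so the liver share was that of all genes. The highest library stood above the next by more than counting error for 15, 13 and 7 of these. The highest and lowest libraries lay less than 2-fold apart for 22 genes and at least 4-fold apart for 7.

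**Figure D2:**
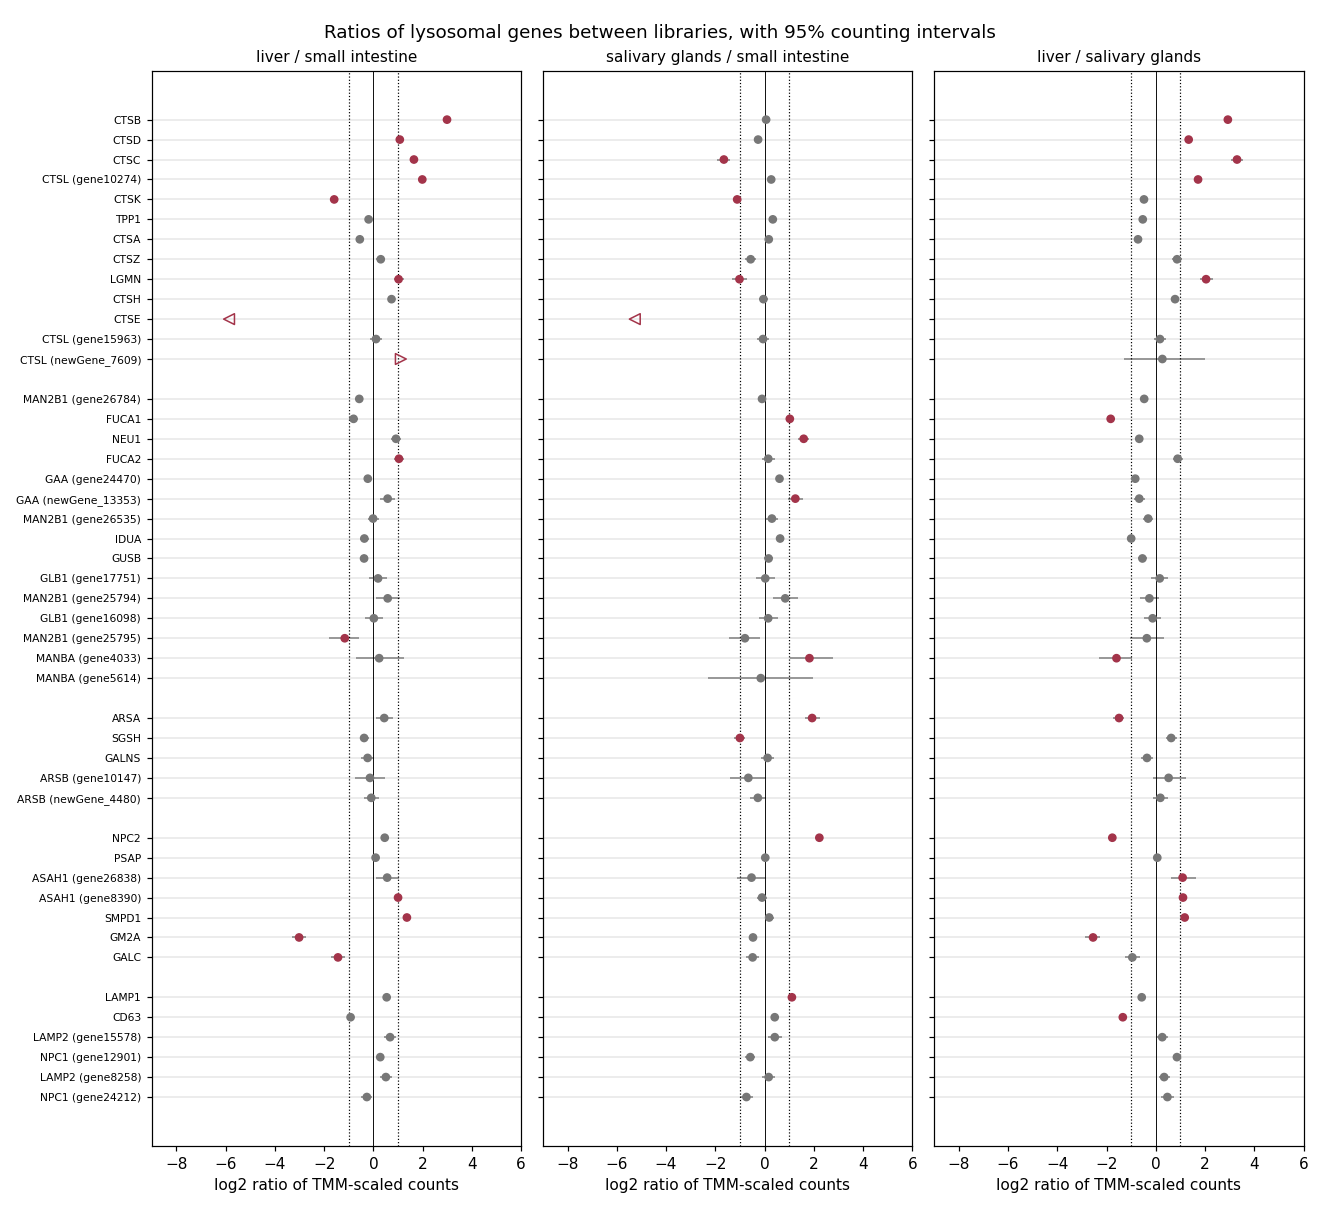
Log2 ratio of TMM-scaled counts for each lysosomal gene in the 3 comparisons, with 95% counting intervals as horizontal lines, and dotted lines at the fold threshold of 1 in either direction. Red points are past the fold, and open triangles mark lower bounds where a library had no fragment. The 9 genes higher in liver than in small intestine include 6 proteases, with CTSB at 2.99.

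The proteases held the widest differences. Cathepsins of the papain family (B, C, H, K, L and Z) cut proteins with a cysteine in their active site, whereas cathepsins D and E are aspartic proteases, cathepsin A a serine carboxypeptidase, legumain an asparaginyl endopeptidase and TPP1 a tripeptidyl peptidase. Of 13 protease genes compared between liver and small intestine, 6 were higher in the liver (CTSB, CTSC, CTSD, LGMN and 2 genes of CTSL) and 2 in the small intestine (CTSK and CTSE). Against the salivary glands, 5 of 12 were higher in the liver and 0 were lower. Of 12 compared between salivary glands and small intestine, 0 were higher in the salivary glands and 4 were lower (CTSC, CTSE, CTSK and LGMN). In these comparisons 61.5%, 41.7% and 33.3% of the proteases passed the fold, where all genes gave 48.0%, 47.4% and 36.9%. Only the share between liver and small intestine was above that of all genes.

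CTSB (gene13735), a broad-acting cysteine protease, had 162, 154 and 1155 FPKM. The small intestine and salivary glands were near each other and the liver stood far above both. These levels came from 2959, 3475 and 39816 fragments, which in the liver is 0.273% of all counts (Wilson 0.271 to 0.276%). The log2 ratio was 2.99 in liver against small intestine (2.94 to 3.05) and 2.93 against salivary glands (2.88 to 2.98), or 7.95-fold and 7.61-fold, and 0.06 between the other organs (-0.01 to 0.13). CTSB held 60.7% of the protease FPKM in the liver, where it ranked 52 among all genes, while its share was 24.7% for small intestine and 29.8% for salivary glands. CTSD (gene24550), which starts the breakdown of many proteins at acid pH, was at 212, 157 and 365 FPKM. The liver was again highest, with log2 ratios of 1.07 against small intestine (1.02 to 1.13) and 1.34 against salivary glands (1.28 to 1.39). The ratio of deposited FPKM between liver and small intestine stayed under the fold. CTSB and CTSD thus stood at an FPKM ratio of 0.762 for small intestine, 0.976 for salivary glands and 3.17 for liver.

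CTSC (gene518) encodes a dipeptidyl peptidase that activates the granule serine proteases of immune cells. It had 41.6, 12.2 and 128 FPKM, from 454, 162 and 2408 fragments, and the 3 libraries were clearly spread apart. Its log2 ratio was 1.65 in liver against small intestine (1.50 to 1.80), -1.65 in salivary glands against small intestine (-1.92 to -1.39) and 3.30 in liver against salivary glands (3.07 to 3.54), the widest difference among the lysosomal genes with fragments in both libraries. LGMN (gene1826), the gene of legumain, which also processes other cathepsins, followed the same order with 12.8, 6.47 and 30.9 FPKM from 271, 150 and 933 fragments. Its log2 ratios were 1.02 (0.83 to 1.22), -1.02 (-1.32 to -0.73) and 2.04 (1.80 to 2.31) in the same comparisons. The intervals of the first 2 reach across the threshold, so at this depth those calls are uncertain.

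Cathepsin L, a cysteine endopeptidase, was annotated at 7 genes, of which gene10274 carried most fragments. That gene had 17.9, 21.2 and 83.1 FPKM, with log2 ratios of 1.99 in liver against small intestine (1.87 to 2.10) and 1.72 against salivary glands (1.62 to 1.82). A further copy, gene15963, was level at 3.99, 3.65 and 4.80 FPKM. Manis_javanica_newGene_7609, assembled by the authors outside the annotation, had 0, 6 and 11 fragments and 0, 2.24 and 2.71 FPKM. Its liver level was 2.17-fold higher than that given by 3 fragments in the small intestine. Its exact counting interval for that ratio starts at a log2 value of 0.57, below the threshold, so at this depth the call is uncertain. Between liver and salivary glands its log2 ratio was 0.27 (-1.28 to 2.0). The copy named gene15389 had 0.332, 0 and 0.0488 FPKM, from 4, 0 and 1 fragments, and lies within a gene on the same strand. No fragment fell on gene15960, gene2046 or gene4607. Reads of near-identical copies can be split between genes, but the counts of all 7 added up gave 970, 1249 and 5337 fragments and a log2 ratio of 1.70 in liver against small intestine (1.60 to 1.80).

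Proteases that were not highest in the liver showed another order. CTSK (gene19092), a collagen- and elastin-degrading enzyme best known from osteoclasts and also made by fibroblasts, was at 64.5, 30.5 and 20.04 FPKM. It was highest in the small intestine, with log2 ratios of -1.59 in liver (-1.69 to -1.49) and -1.11 in salivary glands (-1.21 to -1.01). All 3 fibroblast genes measured were also highest in the small intestine library: COL1A2 was at 28.0, 1.61 and 0.548 FPKM, LUM at 4.46, 3.78 and 1.15, and DCN at 126, 49.5 and 91.4, and the 3 genes summed to 159, 54.9 and 93.1 FPKM. Unlike CTSK, DCN and this sum were lowest in the salivary glands. Their part in the CTSK difference was not tested. CTSE (gene2693) encodes cathepsin E, an aspartic protease of the endosomes that is abundant in the lining of the stomach. It had 103 fragments and 5.15 FPKM in the small intestine library and 0 in both other libraries, where a count of 0 allows up to 3 fragments. With 3 fragments in place of 0, it was 58.1-fold lower in the liver and 38.6-fold lower in the salivary glands. The exact counting intervals end nearer to no difference, at log2 ratios of -5.54 and -4.95. The stomach genes named above were high in that same library, and their part in the CTSE level was not tested.

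The remaining proteases stayed within the fold in every comparison. TPP1 (gene21925), which trims tripeptides from protein ends, had 47.7, 56.6 and 40.0 FPKM. CTSA (gene5116), which also protects neuraminidase and beta-galactosidase in a complex, was at 46.4, 46.6 and 27.9 FPKM. CTSZ (gene17196), a carboxypeptidase, was at 30.3, 18.0 and 31.4 FPKM, and CTSH (gene11770), an aminopeptidase, at 9.18, 6.46 and 13.1 FPKM. The last 2 overlap genes on the other strand (NELFCD and MORF4L1), and because the alignment ignored strand their reads cannot be told apart from those of their partners there. CTSA, IDUA, SGSH, SMPD1, NPC2, NPC1 (gene12901), GALNS and CTSL (gene15963) also overlap a gene on the other strand. The partner of SMPD1 had 345, 180 and 394 fragments, and that of NPC2, ISCA2, had 41, 148 and 65.

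**Figure D3:**
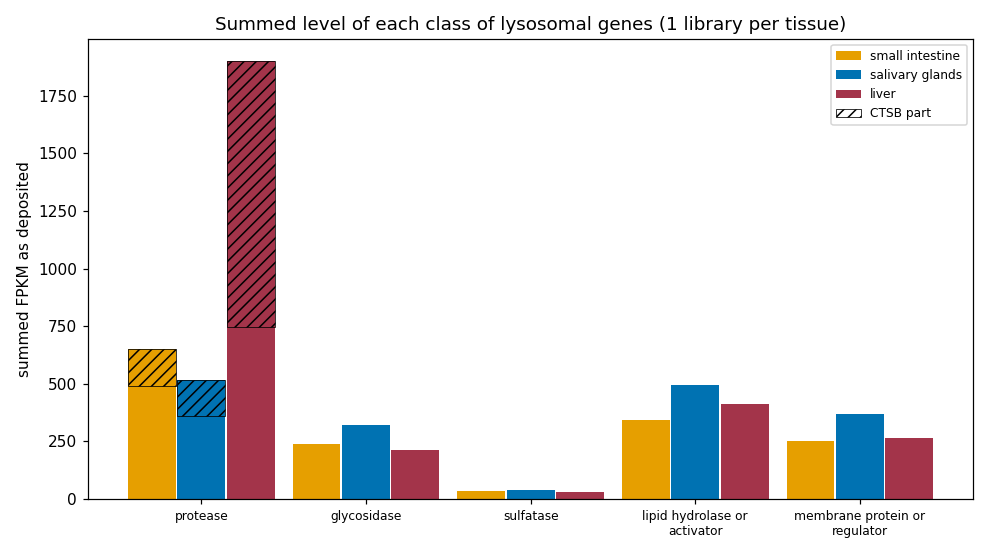
Summed FPKM of each class of lysosomal genes in each library, as bars from 0, with the share of CTSB hatched. The protease bar of the liver reaches 1902 FPKM, of which 747 FPKM are not CTSB, while the other classes have their highest bar in the salivary glands, an order that glycosidases and sulfatases lose once FPKM is divided by the TMM factor.

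By class, proteases summed to 653, 515 and 1902 FPKM, or 43.0%, 29.5% and 67.3% of the lysosomal FPKM. Without CTSB they were at 492, 361 and 747 FPKM, so the liver was still highest. Markers of macrophages moved with this liver level. All 8 macrophage genes measured were past the fold in the liver against both other libraries, with a median log2 ratio of 3.55 against small intestine and 3.73 against salivary glands. They summed to 63.3, 65.9 and 833 FPKM, with the scavenger receptor CD163 at 7.67, 6.96 and 61.0 FPKM, the complement subunit C1QC at 18.7, 16.3 and 367 FPKM and CSF1R, the receptor of the main macrophage growth factor, at 0.400, 0.744 and 9.27 FPKM. Of 5 lymphocyte and plasma cell genes, 4 were also higher in the liver than in either other library. The part of these cells in the liver proteases was not tested. The hepatocyte genes given above were also high there, and neither source can be told apart from the other in a whole-organ library.

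**Figure D4:**
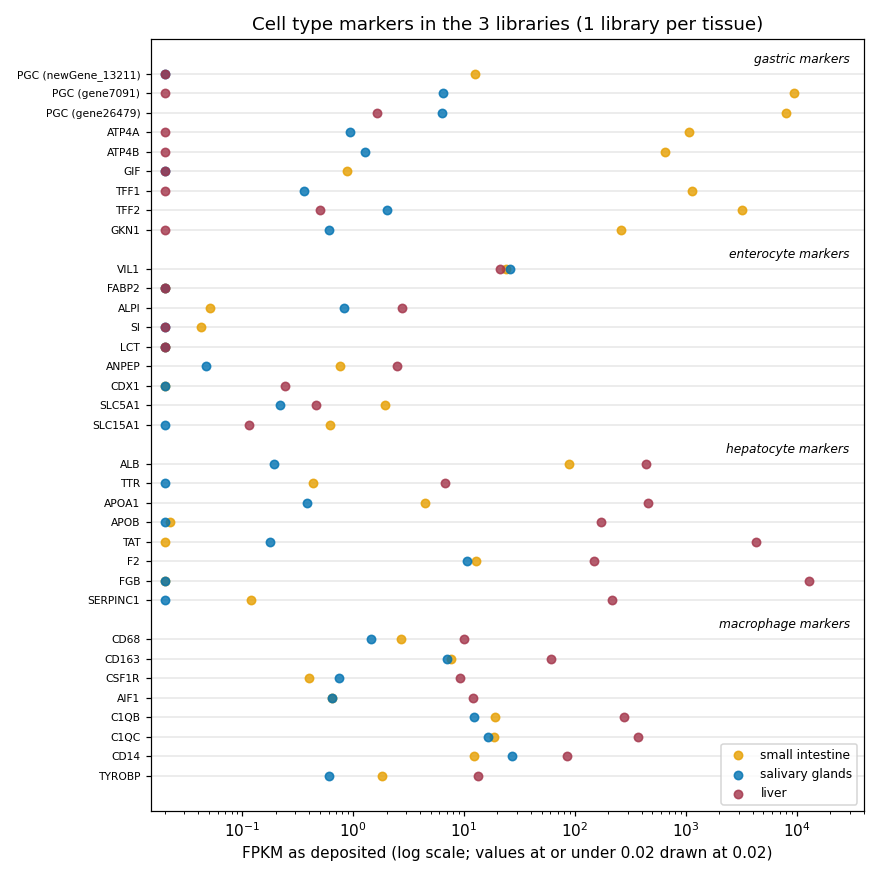
Levels of gastric, enterocyte, hepatocyte and macrophage markers in FPKM as deposited (log axis, values at or under 0.02 drawn at 0.02), with 1 point per library. Gastric markers are highest in the library labelled small intestine, and all 8 macrophage markers are highest in the liver, where C1QC reaches 367 FPKM.

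Glycosidases, which remove sugars from glycoproteins, glycolipids and glycosaminoglycans, summed to 238, 322 and 213 FPKM. The salivary glands were highest by this sum but level with the small intestine once FPKM was divided by the TMM factor, at 279, 275 and 212. Between salivary glands and small intestine, 4 of 15 glycosidase genes were higher in the salivary glands (FUCA1, NEU1, MANBA and 1 gene of GAA) and 0 were lower, and against the liver 2 of 14 were higher in the salivary glands and 0 in the liver. Between liver and small intestine, 1 of 14 was higher in the liver (FUCA2) and 1 was lower (MAN2B1 gene25795). The fold passed for 26.7% of these genes in the first comparison and for 14.3% in each of the other 2, all below the background given above.

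NEU1 (gene12348), the sialidase that takes sialic acid off glycans, had 14.0, 37.9 and 23.9 FPKM, from 227, 769 and 727 fragments. Its log2 ratio in salivary glands against small intestine was 1.59 (1.38 to 1.81). FUCA1 (gene15793), the lysosomal fucosidase, was at 30.3, 60.9 and 17.9 FPKM and was highest in the salivary glands, with log2 ratios of 1.03 against small intestine (0.87 to 1.18) and -1.83 in liver against salivary glands (-1.99 to -1.67). Its paralog FUCA2 (gene9870), a secreted fucosidase, showed a different order, with 13.8, 14.9 and 32.6 FPKM and a log2 ratio of 1.04 in liver against small intestine (0.83 to 1.26). The ratio of FUCA1 to FUCA2 FPKM was accordingly 2.20 for small intestine, 4.10 for salivary glands and 0.551 for liver.

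MAN2B1, the alpha-mannosidase that trims N-glycans, was annotated at 4 genes. The highest glycosidase level was that of gene26784, with 71.1, 62.1 and 43.2 FPKM from 965, 1010 and 1098 fragments, and it stayed within the fold, at a log2 ratio of -0.57 in liver against small intestine (-0.70 to -0.45), -0.10 in salivary glands against small intestine (-0.23 to 0.03) and -0.47 in liver against salivary glands (-0.59 to -0.35). Of the others, gene26535 had 21.4, 22.5 and 17.4 FPKM, gene25794 had 5.30, 8.25 and 6.80 FPKM, and gene25795 had 4.68, 2.29 and 1.73 FPKM. Only gene25795 passed the fold, on 56, 36 and 42 fragments. Its log2 ratio in liver against small intestine was -1.16 (-1.79 to -0.57). That interval reaches across the threshold, so at this depth the call is uncertain. The acid alpha-glucosidase GAA, which degrades lysosomal glycogen, was at 20.7, 30.1 and 15.8 FPKM for gene24470 and at 11.7, 26.5 and 15.3 FPKM for Manis_javanica_newGene_13353, and both were highest in the salivary glands.

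GUSB (gene19705), the beta-glucuronidase, was at 16.5, 17.1 and 11.7 FPKM and was lowest in the liver, within the fold, at log2 ratios of -0.38 against small intestine (-0.56 to -0.20) and -0.54 against salivary glands (-0.71 to -0.37). IDUA (gene8795), which removes iduronic acid from dermatan and heparan sulfate, had 11.7, 21.3 and 9.84 FPKM, and its log2 ratio of -1.0 in liver against salivary glands (-1.15 to -0.85) fell just short of the threshold before rounding. The beta-galactosidase GLB1 did not separate the organs, at 10.4, 9.94 and 11.1 FPKM for gene17751 and 4.44, 4.71 and 4.20 FPKM for gene16098. The beta-mannosidase MANBA was the lowest of the glycosidases, with 0.566, 2.18 and 0.734 FPKM for gene4033, from 15, 61 and 30 fragments, and 0.950, 0.819 and 0.471 FPKM for gene5614, from 5, 5 and 4 fragments.

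Sulfatases, which cleave sulfate esters from glycosaminoglycans and sulfolipids, were the lowest class, at 36.3, 38.9 and 31.9 FPKM in all. Between liver and small intestine 0 of 5 passed the fold, between salivary glands and small intestine 1 was higher and 1 lower, and between liver and salivary glands 0 were higher and 1 was lower. As shares these are 0%, 40% and 20%, where all genes gave 48.0%, 36.9% and 47.4%, so the second share was near that of all genes. ARSA (gene18738), the arylsulfatase that degrades sulfatide, stood at 5.12, 16.2 and 5.35 FPKM, from 110, 473 and 253 fragments. The salivary glands were alone at the high level, with log2 ratios of 1.93 against small intestine (1.63 to 2.25) and -1.49 in liver against salivary glands (-1.72 to -1.27), and 0.44 in liver against small intestine (0.11 to 0.78). SGSH (gene20892), the heparan N-sulfatase, ran the other way, with 8.80, 4.83 and 6.31 FPKM and a log2 ratio of -1.0 in salivary glands against small intestine (-1.23 to -0.78), just past the threshold. GALNS (gene23168), which acts on keratan and chondroitin sulfate, was at 8.50, 8.11 and 5.95 FPKM, and lies over APRT on the same strand. ARSB, which acts on dermatan sulfate, was at 6.95, 4.27 and 7.24 FPKM for gene10147 and at 6.90, 5.52 and 7.05 FPKM for Manis_javanica_newGene_4480.

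SUMF1, the enzyme that converts a cysteine in every sulfatase to the catalytic formylglycine, had the same highest library as ARSA, with 15.2, 43.9 and 13.8 FPKM. Its log2 ratios were 1.67 in salivary glands against small intestine and -1.89 in liver against salivary glands. Of the other sulfatases, 0 passed the fold in favour of the salivary glands.

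Lipid hydrolases and their helper proteins summed to 341, 497 and 413 FPKM. Of 7 genes, 2 were higher in liver than in small intestine (SMPD1 and ASAH1 gene8390) and 2 were lower (GM2A and GALC), while 1 was higher in salivary glands than in small intestine (NPC2) and 0 were lower. Between liver and salivary glands, 3 were higher (SMPD1 and both genes of ASAH1) and 2 lower (NPC2 and GM2A). With library size only, SMPD1 and both genes of ASAH1 stayed under the fold there. Over these comparisons 57.1%, 14.3% and 71.4% of the 7 genes passed the fold, where all genes gave 48.0%, 36.9% and 47.4%. NPC2 (gene6931) is a small soluble protein that binds cholesterol inside the lysosome and hands it to the membrane protein NPC1. It had 54.6, 251 and 79.3 FPKM, from 411, 2162 and 958 fragments, and was the highest lysosomal gene of the salivary glands, with 14.4% of their lysosomal FPKM. The log2 ratio was 2.22 in salivary glands against small intestine (2.07 to 2.38), -1.76 in liver against salivary glands (-1.88 to -1.65) and 0.46 in liver against small intestine (0.29 to 0.63). The 2 genes of NPC1 were lowest in the salivary glands, at 19.0, 12.2 and 23.7 FPKM (gene12901) and 10.9, 6.68 and 11.1 FPKM (gene24212). NPC2 thus stood 1.83-fold over the summed NPC1 FPKM for small intestine, 13.3-fold for salivary glands and 2.28-fold for liver.

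GM2A (gene399) encodes the activator that lifts the ganglioside GM2 from the membrane so that it can be degraded. Its levels were 25.1, 16.9 and 2.93 FPKM, from 562, 456 and 117 fragments. The liver was far below both other libraries, with log2 ratios of -3.02 against small intestine (-3.32 to -2.73) and -2.55 against salivary glands (-2.86 to -2.26), or 8.09-fold and 5.84-fold lower, and the ratio between salivary glands and small intestine was -0.47 (-0.65 to -0.29).

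PSAP (gene17272), the precursor of the saposins that help degrade sphingolipids, was even across the organs at 171, 157 and 168 FPKM, from 4202, 4820 and 7575 fragments. Its log2 ratios were 0.09 (0.04 to 0.15) in liver against small intestine, 0.03 (-0.03 to 0.09) in salivary glands against small intestine and 0.06 (0.01 to 0.11) in liver against salivary glands. Enzymes that saposins assist were less even. SMPD1 (gene18933), the acid sphingomyelinase, was at 15.2, 15.6 and 35.8 FPKM, and its log2 ratio in liver was 1.36 against small intestine (1.21 to 1.52) and 1.17 against salivary glands (1.04 to 1.32). ASAH1, the acid ceramidase, was also highest in the liver, with 25.3, 24.1 and 59.2 FPKM for gene8390 and 41.7, 27.0 and 63.9 FPKM for gene26838. GALC (gene8055), which removes galactose from galactosylceramide, went the other way, with 7.99, 5.91 and 3.38 FPKM and a log2 ratio of -1.44 in liver against small intestine (-1.73 to -1.15).

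Membrane proteins and regulators summed to 251, 371 and 266 FPKM. Between liver and small intestine 0 of 6 genes passed the fold, LAMP1 alone passed it between salivary glands and small intestine, and CD63 alone between liver and salivary glands. The shares of 0%, 16.7% and 16.7% were below the 48.0%, 36.9% and 47.4% of all genes. LAMP1 (gene10412), the main glycoprotein of the lysosomal membrane, was at 101, 199 and 137 FPKM, from 2188, 5310 and 5384 fragments. The salivary glands were highest, with log2 ratios of 1.11 against small intestine (1.04 to 1.18) and -0.57 in liver against salivary glands (-0.63 to -0.52), and 0.54 in liver against small intestine (0.47 to 0.61). The ratio of deposited FPKM between salivary glands and small intestine stayed under the fold. LAMP2, its relative, which also serves chaperone-mediated autophagy, was highest in the liver, at 23.5, 30.4 and 41.3 FPKM for gene15578 and 6.89, 7.91 and 13.5 FPKM for gene8258, with every ratio within the fold. LAMP1 stood 3.32-fold over the summed LAMP2 FPKM for small intestine, 5.19-fold for salivary glands and 2.50-fold for liver. CD63 (gene7867), a tetraspanin of late endosomes and of secretory granules, had 89.4, 115 and 39.4 FPKM and was lowest in the liver, with log2 ratios of -0.93 against small intestine (-1.08 to -0.77) and -1.34 against salivary glands (-1.48 to -1.20).

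The 6 genes found by NR name alone include a receptor, a regulator and 4 hydrolases. SCARB2 (gene22053), the membrane receptor that carries glucocerebrosidase to the lysosome, was at 14.3, 38.1 and 64.4 FPKM, with a log2 ratio of 2.05 in liver against small intestine (1.89 to 2.23) and 1.62 in salivary glands against small intestine (1.44 to 1.80). TFEB (gene7092), the transcription factor that switches on lysosomal genes, was at 11.7, 5.04 and 4.27 FPKM. Its log2 ratio was -1.15 in liver against small intestine (-1.42 to -0.88). IDS (gene16704), the iduronate sulfatase, was lowest in the liver at 13.4, 11.2 and 5.67 FPKM, and NAGLU (gene23588), which like IDS degrades heparan sulfate, was highest there at 9.35, 7.94 and 18.7 FPKM. CTSF (gene12793), a cysteine cathepsin, had 7.35, 7.56 and 3.37 FPKM, and GLA (gene895), the alpha-galactosidase A, had 5.23, 5.01 and 7.64 FPKM.

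Other lysosomal genes were read through 5 lists. Of the other hydrolases and their activators, 10 of 28 were higher and 4 lower in liver than in small intestine, 10 of 25 were higher and 3 lower in salivary glands than in small intestine, and 8 of 28 were higher and 9 lower in liver than in salivary glands. Together these are 50%, 52% and 60.7%, where all genes gave 48.0%, 36.9% and 47.4%, so the first share was near that of all genes. CTBS (gene1384), a chitobiase that cuts the core of N-glycans from their reducing end, was at 1.20, 0.108 and 501 FPKM, from 11, 1 and 6208 fragments, with a log2 ratio of 8.33 in liver against small intestine (7.54 to 9.38) and 11.53 against salivary glands (9.53 to 17.31). PLBD2, a phospholipase B-like protein, was at 4.59, 12.9 and 64.3 FPKM. SIAE, a sialic acid esterase, had 0 fragments in the liver. With 3 in place of 0, it was 9.03-fold lower there than in the small intestine and 18.6-fold lower than in the salivary glands. The exact counting intervals reach up to log2 ratios of -2.71 and -3.84.

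The V-ATPase, the pump that acidifies the lysosome and other compartments, had 4 of 22 subunit genes higher and 4 lower in liver than in small intestine, 5 higher and 0 lower in salivary glands than in small intestine, and 1 higher and 5 lower in liver than in salivary glands. These shares of 36.4%, 22.7% and 27.3% were all below the 48.0%, 36.9% and 47.4% of all genes. Its highest levels were those of ATP6V1G1, at 255, 156 and 340 FPKM, and ATP6V0E1 (gene10430), at 102, 196 and 146 FPKM. ATP6V0A4, an isoform of epithelia that secrete acid, had 0, 29 and 20 fragments. With 3 in place of 0, it was 8.60-fold higher in salivary glands and 3.94-fold higher in liver than in small intestine. The exact counting intervals start at log2 ratios of 2.71 and 1.54. ATP6V1C2, another isoform, was at 2.46, 3.78 and 0.601 FPKM.

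Among genes that sort, process or inhibit the hydrolases, 2 of 19 were higher and 1 lower in liver than in small intestine, 4 of 18 were higher and 0 lower in salivary glands than in small intestine, and 1 of 19 was higher and 5 lower in liver than in salivary glands. At 15.8%, 22.2% and 31.6%, this list was below the 48.0%, 36.9% and 47.4% of all genes. The highest level of this list in the small intestine and salivary glands was that of CST3, and in the liver that of CSTB, both of them cystatins, which inhibit cysteine cathepsins. CST3 (gene25022) was at 200, 186 and 54.7 FPKM, lowest in the liver at a log2 ratio of -1.63 against small intestine, while CSTB stayed within the fold at 129, 112 and 126 FPKM. CST6, a further inhibitor, was close to 0 at 0.163, 0.0557 and 0.427 FPKM.

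Of the other membrane proteins and transporters, 5 of 15 were higher and 2 lower in liver than in small intestine, 7 of 15 were higher and 1 lower in salivary glands than in small intestine, and 4 were higher and 7 lower in liver than in salivary glands. That makes 46.7%, 53.3% and 73.3% past the fold, where all genes gave 48.0%, 36.9% and 47.4%, so the first share was near that of all genes. SLC17A5, the sialin that exports sialic acid from the lysosome, was at 6.94, 45.0 and 5.29 FPKM, with log2 ratios of 2.71 in salivary glands against small intestine (2.46 to 2.99) and -3.30 in liver against salivary glands (-3.56 to -3.05). It was thus highest in the same library as the sialidase NEU1. The sialomucin CD164 was at 183, 348 and 127 FPKM and LAPTM4A at 110, 130 and 203 FPKM. SLC11A1, a metal transporter of phagosomes, was at 1.21, 2.40 and 10.8 FPKM and so was highest in the liver, where the macrophage genes were highest too.

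The regulators, which place or activate the growth sensor mTORC1 on the lysosome or switch on lysosomal genes, had 11 of 13 genes within the fold between liver and small intestine. There, 1 was higher and 1 lower, while 1 of 12 was higher and 1 lower in salivary glands than in small intestine, and 2 of 13 were higher and 3 lower in liver than in salivary glands. The shares past the fold were 15.4%, 16.7% and 38.5%, all below the 48.0%, 36.9% and 47.4% of all genes. LAMTOR2 and LAMTOR5, subunits of the anchor of this sensor, were at 19.6, 48.5 and 25.4 FPKM and at 38.9, 44.3 and 22.2 FPKM. RRAGD, a GTPase of the same machinery, was at 13.1, 16.0 and 5.03 FPKM, and TFEC, a relative of TFEB, was below 1 FPKM in every library at 0.230, 0.236 and 0.535.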

How the data were processed

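RNA of 3 tissues of 1 animal was sequenced, 1 library per tissue. The authors removed poor reads, aligned with TopHat2 without regard to strand and joined new genes with Cufflinks. The deposited counts are whole fragments per gene, with no scaling, and the counting tool is not given in the sources used here. The deposited FPKM were made by the authors, who name RSEM, from fragments, transcript length and mapped fragments. A deposited score, the count times a factor, was not used. The FPKM departed by over 1.5-fold from count over length for 7, 8 and 11 of the 44, 43 and 44 lysosomal genes with at least 10 fragments (small intestine, salivary glands, liver). Among all genes with as many fragments, 12.1%, 13.1% and 22.2% departed so. Levels and ranks by FPKM can therefore differ from those by counts.

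TMM factors from edgeR 4.0.16 (R 4.3.3) were 0.851, 1.17 and 1.00. Ratios used a prior count of 0.5. For fold values, a count of 0 was set to 3 fragments and the other count was taken as counted. Intervals are exact conditional binomial, or Wilson for shares, at 95%, made in Python 3.11.15 with scipy 1.17.1 and drawn with matplotlib 3.10.9. Intervals cover counting error only, and fold values made with 3 fragments leave out counting error in the other library. On simulated data with 200 genes changed 4-fold, the fold rule recovered 93% for liver against small intestine with 412 other calls among 17855 genes, 96.5% for salivary glands against small intestine with 331 among 17045, and 96.5% for liver against salivary glands with 383 among 17583. The simulated counts held counting noise only, so these values are not error rates for differences between animals or libraries.

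Genes and lists were chosen with earlier results of these data known. All lysosomal genes found are named. Those highest in a class, or past 4-fold, have counts and intervals, and each list gives the 2 genes highest in FPKM and the 2 with the largest ratios. SUMF1 beside ARSA, and genes with intervals outside this rule were picked after their values were seen, and so was the removal of paralogs from the lists by NR name. NPC2, a soluble protein, was placed with the lipid class. Alternatives were other scalings, thresholds, a read test after the MA-plot method with q under 0.005, and other ways to gather genes. The genome build is not given in the sources used here, and no sequence of these genes was used here.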

Additional observations from a re-analysis of the deposited data

How the results depend on the processing

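No paired analysis was possible because each tissue has 1 library and the result comes from no test. No call past the fold changed sign under library size only, upper quartile scaling or the ratio of deposited FPKM (plus 0.1), and 9 of 14, 8 of 12 and 11 of 14 calls passed the fold in all of them (liver against small intestine, salivary glands against small intestine, liver against salivary glands). Those that did not were ASAH1 (gene8390), CTSD, FUCA2, LGMN and MAN2B1 (gene25795) in the first comparison, CTSK, LAMP1, LGMN and SGSH in the second, and both ASAH1 genes and SMPD1 in the third. At an absolute log2 ratio of at least 2, 4, 2 and 4 genes remained from 14, 12 and 14. With every gene of the Swiss-Prot symbol, 24 genes passed in liver against small intestine, since the genes set aside enter. The split of higher against lower calls moved with library size only, to 10 against 2 in salivary glands against small intestine and 5 against 9 in liver against salivary glands, and with upper quartile scaling to 6 against 5 in liver against small intestine, 7 against 3 and 8 against 8. The ratio of FPKM gave 8 against 6 in the first comparison and 6 against 3 in the second. TMM shifts all ratios against library size only by -0.24, -0.46 and 0.22, and the median log2 ratio with library size only was 0.43, 0.52 and -0.25. With the counts of 1 symbol added up it was -0.36 in liver against salivary glands. All 12 alternatives for the number of expressed genes lay within 1.5-fold. By library size only, the highest library was the small intestine for 7, the salivary glands for 23 and the liver for 16 of 46 genes, so the order of salivary glands and liver depends on the scaling. With 1 animal, no spread between animals is known, and where few fragments were counted, as on MANBA gene5614 (5, 5 and 4), the order of libraries is not beyond counting error.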

Other observations

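Among the genes set aside because their NR name matched no listed product, several were far from even. The gene named after PSAP in Swiss-Prot but proactivator polypeptide-like 1 in NR was gene4831. It was at 8.27, 1.30 and 0 FPKM in small intestine, salivary glands and liver, from 214, 44 and 0 fragments. With 3 fragments in place of 0, it was 121-fold lower in liver than in small intestine. The exact counting interval reaches up to a log2 ratio of -6.61. Cathepsin O (gene24080), a cysteine cathepsin that carried the symbol of CTSH, was at 11.5, 1.04 and 2.45 FPKM, with a log2 ratio of -3.36 in salivary glands against small intestine (-4.06 to -2.78). CTSS and ACP5 were not among the genes set aside but came from the list of other hydrolases. Cathepsin S (CTSS), the cysteine cathepsin that processes the invariant chain in antigen-presenting cells, was at 0.375, 0.723 and 13.6 FPKM, and ACP5, the tartrate-resistant acid phosphatase of osteoclasts and macrophages, at 0.615, 0.0825 and 15.5 FPKM. Macrosialin (CD68, gene15468), the lysosomal membrane protein of macrophages, was set aside from the symbol LAMP1 and was at 2.69, 1.46 and 10.02 FPKM. These 3 genes were all highest in the library in which the other macrophage genes were highest, and whether they come from the same cells was not tested.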
